A study of Homo sapiens with 18 samples.

Results

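The ERVK class of human endogenous retroviruses was followed in RNA from PC9, a human lung cancer line that depends on the kinase EGFR, as 40 repeat names of the deposited repeat table. Names were chosen by spelling (HERVK, LTR3, LTR5, LTR13, LTR14, LTR22, MER9a and MER11 and their variants), with at least 20 reads summed over all libraries and no comma. This gave 50 of the 17319 names in the table, of which 1759 had reads. Of these 50, 10 share only the first letters and digits with MER11 (MER110, MER110A, MER110-int, MER112, MER113, MER113A, MER113B, MER115, MER117 and MER119); they are ERV1 repeats or DNA transposons and are described apart. The other 40 hold 10 internal regions and 30 long terminal repeats (LTRs). Together they made up between 99.831% and 100% of the reads of the ERVK row of the deposited family table in each library; MER9B, with 220.2 reads, and LTR5, with 8.7, accounted for the rest.

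An ERVK provirus is an old retroviral insertion made of an internal region, which held the genes gag, pro, pol and env, between a pair of LTRs. The LTR carries the promoter and the end of the viral transcript, and most copies in the genome are solitary LTRs left after recombination. Copies are normally held silent by histone H3 lysine 9 methylation, which the scaffold TRIM28 and the methyltransferase SETDB1 lay down after zinc finger proteins bind the provirus, and by DNA methylation. The group HML2, with the internal region HERVK-int and the LTRs LTR5_Hs, LTR5A and LTR5B, is the youngest, and LTR5_Hs is its most recent LTR. The other internal regions belong to older groups and pair with LTRs named LTR3, MER9a, MER11, LTR13, LTR14 or LTR22.

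The series holds 18 polyA-selected libraries in 6 groups of 3, with replicates a, b and c. Parental_DMSO cells received only the solvent. Drug-tolerant persisters (DTP) are the cells left alive by erlotinib, an EGFR inhibitor, at 1 µM over 8 days, with drug and medium renewed every 3 days; their label also describes ALDH_High and ALDH_Low samples, which no sample title names. Acute treatment was with erlotinib at the same 1 µM for 24 hours (erlotinib_24h) or with carboplatin, which crosslinks DNA, at 50 µM for 72 hours with fresh drug daily (carboplatin_72h). Trichostatin A (TSA), which blocks histone deacetylases, was applied at 50 nM for 5 hours to parental cells (parental_TSA) and to persisters (DTP_TSA). All groups come from 1 cell line, and whether replicates came from separate cultures is not in the labels; p-values then cover only the spread between these samples, which may be technical.

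Gene reads ran from 32139343 to 128293531 per library, and the 40 ERVK names took between 9583 and 27189 reads. DTP_TSA a stood apart, with 46% of its reads on the added spike-in RNA and 90.0% of its repeat reads on ribosomal RNA repeats, against at most 0.763% and 71.5% elsewhere. Results are therefore also given without replicate a of both TSA groups. The 6 epithelial markers summed to between 3989 and 8468 CPM (reads per 1000000 gene reads) in each library, against between 4.69 and 32.2 for 6 fibroblast markers, of which COL1A2 and COL3A1 were at or near 0, between 17.5 and 118 for 6 endothelial and between 23.4 and 71.1 for 6 immune markers. The fibroblast sum was lowest in parental_DMSO, the endothelial sum highest in erlotinib_24h and the immune sum highest in carboplatin_72h. Few genes made up these sums. By group means, COL1A1 had 26.0 of the 26.8 CPM of the fibroblast sum in DTP. CD68 had 68.7 of the immune sum of 70.0 in carboplatin_72h. PECAM1 and CDH5 had 69.7 and 43.3 of the endothelial sum of 115.9 in erlotinib_24h. The part of these sums in the ERVK values was not tested. In bulk RNA, fewer cells that express a repeat and less of its RNA per cell cannot be told apart, nor can a provirus's own transcript and a host transcript that contains a copy.

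Scaled to gene reads, ERVK RNA was highest after carboplatin and after 24 hours of erlotinib. Summed over the 40 names, it stood at 185.5, 193.5 and 185.9 CPM for parental_DMSO, 213.8, 207.3 and 204.4 for DTP, 306.0, 293.0 and 293.5 for erlotinib_24h and 333.7, 336.6 and 322.5 for carboplatin_72h. TSA libraries gave 228.4, 205.5 and 204.5 CPM in parental cells and 253.4, 231.8 and 229.0 in persisters. The carboplatin and erlotinib_24h libraries lay above those of the other groups, and each treated group lay wholly above parental_DMSO.

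In the fit of the ERVK row among 57 repeat families, the log2 change from parental_DMSO was 0.81 ± 0.05 in carboplatin_72h (SE, edgeR adjusted p = 2.07e-09) and 0.66 ± 0.05 in erlotinib_24h (4.64e-08). DTP differed by 0.15 ± 0.05 (0.0471) and parental_TSA by 0.18 ± 0.05 (0.00814), while DTP_TSA differed from DTP by 0.19 ± 0.05 (0.0153). DTP lay below erlotinib_24h by a log2 difference of -0.51 ± 0.05 (1.07e-06). Scaled to spike-ins, the median of that comparison over single ERVK names was 0.06, where that of all repeat names was 0.27. On that scale 7 ERVK names were higher and 5 lower (10.7% and 3.33% of all names). The difference between both TSA effects was 0.02 ± 0.07 (0.9). Of the 57 families, 52.6% were called in either direction in carboplatin_72h, 33.3% in erlotinib_24h, 17.5% in DTP and 40.4% in parental_TSA. It was 19.3% for TSA in persisters and 31.6% for DTP against erlotinib_24h. The ERV1 family changed by 0.79 in carboplatin_72h, 0.57 in erlotinib_24h, 0.26 in parental_TSA and -0.11 in DTP.

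Repeat reads other than ribosomal RNA came to between 1.19 and 1.22 per 100 gene reads in parental_DMSO, 1.79 and 1.85 after carboplatin and 1.45 and 1.48 in erlotinib_24h. With ribosomal RNA repeats included, parental_DMSO ranged from 1.68 to 4.30 and overlapped with both. Scaled to repeat reads, the ERVK row was still higher than in parental_DMSO after carboplatin (0.26 ± 0.05, adjusted p = 0.00125), 24 hours of erlotinib (0.40 ± 0.05, 1.86e-05) and TSA in parental cells (0.28 ± 0.05, 4.12e-04). The DTP difference was 0.12 ± 0.05 (0.0921) and that of TSA in persisters -0.03 ± 0.05 (0.691); these calls were lost. The difference between both TSA effects became -0.31 ± 0.07 (0.00644). As a share of repeat reads without ribosomal RNA, ERVK names took 1.41% to 1.43% in parental_DMSO, 1.61% to 1.64% in DTP, 1.96% to 2.00% in erlotinib_24h, 1.80% to 1.83% in carboplatin_72h, 1.63% to 1.88% in parental_TSA and 1.68% to 1.75% in DTP_TSA. On that scale the erlotinib_24h libraries, not those of carboplatin, were the highest.

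**Figure D1:**
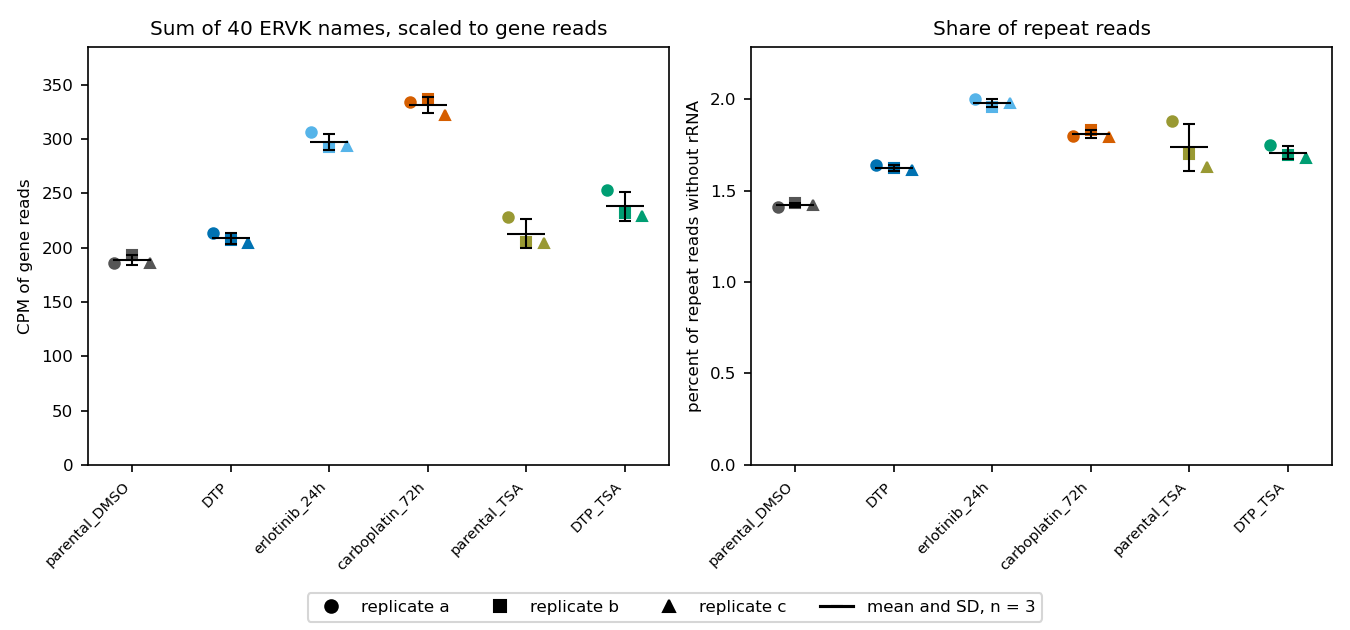
Summed level of the 40 ERVK names in each library, as CPM of gene reads (left) and as a percent of repeat reads without ribosomal RNA (right); symbols are replicates and bars the mean and SD of 3. Carboplatin libraries, at 322.5 to 336.6 CPM, were highest on the left and erlotinib_24h libraries, at 1.96% to 2.00%, on the right.

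The make-up of ERVK reads differed between treatments. HML2 names took 27.5% of all ERVK reads, those of HERVK13 18.9%, HERVK11 18.9%, HERVK3 15.2%, HERVK9 7.85%, HERVK22 7.41% and HERVK14 4.17%. The share of HERVK13 names was 17.9% ± 0.3 in parental_DMSO (SD, n = 3) and 28.9% ± 0.7 in carboplatin_72h, and that of HERVK22 names 5.72% ± 0.25 in parental_DMSO and 12.7% ± 0.2 in erlotinib_24h. The share of HML2 names was 27.1% ± 0.3 in parental_DMSO and 32.1% ± 1.1 in DTP. Libraries did not overlap in any of these 3 pairs, which are a selection. The share of HERVK3 names was 18.8% ± 0.5 in parental_DMSO and lower in each treated library, at 11.4% to 16.5%. That of HERVK14 names was 3.07% ± 0.14 in parental_DMSO and 4.89% ± 0.11 in DTP, also without overlap. No test was run on the shares. Since the files give no repeat lengths, levels of different names are not compared, other than as shares of reads.

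Of the 40 names, 38 passed the filter on low counts and were tested among 1101 repeat names; LTR22C, with 93.3 reads in all, and LTR22C2, with 54.2, did not. Counts below are of names with an adjusted p under 0.05 on the gene scale.

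In DTP against parental_DMSO, 8 of 38 ERVK names were higher and 2 lower, where 7.72% of all names were higher and 6.09% lower. The median log2 change was 0.16 over ERVK names and 0.02 over all names. HERVK-int, HERVK14-int, LTR22B1 and MER11D were among the higher names. Leaving out any 1 of the 6 parental_DMSO and DTP libraries left 4 higher and 0 or 1 lower. In these fits 60 to 64 of all names were higher and 37 to 57 lower, against 85 and 67 with all libraries. Without DTP_TSA a the lower count was 5, and 125 over all names. It was 1 without any 1 of DTP_TSA c, parental_TSA b and the 6 libraries of erlotinib_24h and carboplatin_72h. In those fits 61 to 67 of all names were lower. A fit without both TSA a libraries gave 13 higher and 7 lower, with 19.3% and 17.2% of all names.

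After 24 hours of erlotinib, 17 ERVK names were higher and LTR3 alone was lower, where 24.2% of all names were higher and 6.63% lower. The median was 0.54 over ERVK names and 0.21 over all names. Each of the 7 sets of names except HERVK3 had a higher member. With both TSA a libraries left out it was 23 higher and 4 lower, with 40.2% and 14.4% of all names. The lower count was 0 without parental_DMSO b, 3 without DTP_TSA a and 2 without parental_TSA a. Over all names it was 59, 115 and 97 in these fits, against 73 with all libraries.

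After carboplatin the most ERVK names were called, with 22 higher and MER11D alone lower, where 45.3% of all names were higher and 1.82% lower. The median was 0.84 over ERVK names and 0.54 over all names. All 4 HML2 names were higher on the gene scale, though LTR5A was at -0.18 scaled to repeat reads. Omitting both TSA a libraries gave 32 higher and 1 lower, with 69.4% and 3.47% of all names.

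TSA in parental cells left 11 ERVK names higher and 3 lower, the latter being HERVK3-int, HERVK9-int and MER11D, where 10.5% of all names were higher and 18.3% lower. The median was 0.17 over ERVK names and -0.13 over all names. The sum of the internal regions was 56.4 ± 1.7 CPM in parental_DMSO and 47.7 ± 10.3 in parental_TSA (SD, n = 3), with overlap, and that of the LTRs 132.0 ± 2.8 and 165.1 ± 23.6, without overlap. Parental_TSA a had the lowest internal sum, 36.6 CPM, and the highest LTR sum, 191.9. Scaled to spike-ins the count was 8 higher and 0 lower, with 10.7% and 12.4% of all names. With both TSA a libraries left out the count was 13 higher and 7 lower, with 16.6% and 27.9% of all names. It was 6 higher without parental_DMSO a and 7 without parental_TSA a, and 5 lower without DTP_TSA a or parental_TSA c. Over all names 77 and 95 were higher and 316 and 255 lower in these fits, against 116 and 202 with all libraries.

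TSA in persisters left 10 ERVK names higher and 0 lower, where 12.2% of all names were higher and 4% lower. The edgeR test gave 13 names in either direction at an unadjusted p under 0.05, with no count over all names for comparison. DESeq2 called 12 higher and 0 lower (21.9% and 4.81% of all names). The median was 0.21 over ERVK names and 0.13 over all names. Omitting both TSA a libraries gave 16 higher and 5 lower, with 23.0% and 10.4% of all names. The higher count was 5 without DTP b and 4 without DTP c, where 64 and 48 of all names were higher. The lower count was 3 without DTP_TSA a and 1 without DTP_TSA c or parental_TSA a. Over all names the lower counts there were 62, 50 and 74. With all libraries, 134 of all names were higher and 44 lower.

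DTP lay below erlotinib_24h in 15 ERVK names and above in 0, where 17.0% of all names were lower and 4.27% higher. At an unadjusted p under 0.05, 16 differed in either direction, with no count over all names for comparison. DESeq2 called 15 lower and 0 higher (21.7% and 4.36% of all names). The median was -0.39 over ERVK names and -0.19 over all names. Both DTP and erlotinib_24h were also compared with the same parental_DMSO libraries. A fit without both TSA a libraries gave 19 lower and 2 higher, with 35.2% and 10.0% of all names. The higher count was 1 without parental_TSA a or parental_TSA c, where 67 and 52 of all names were higher, against 47 with all libraries.

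**Figure D2:**
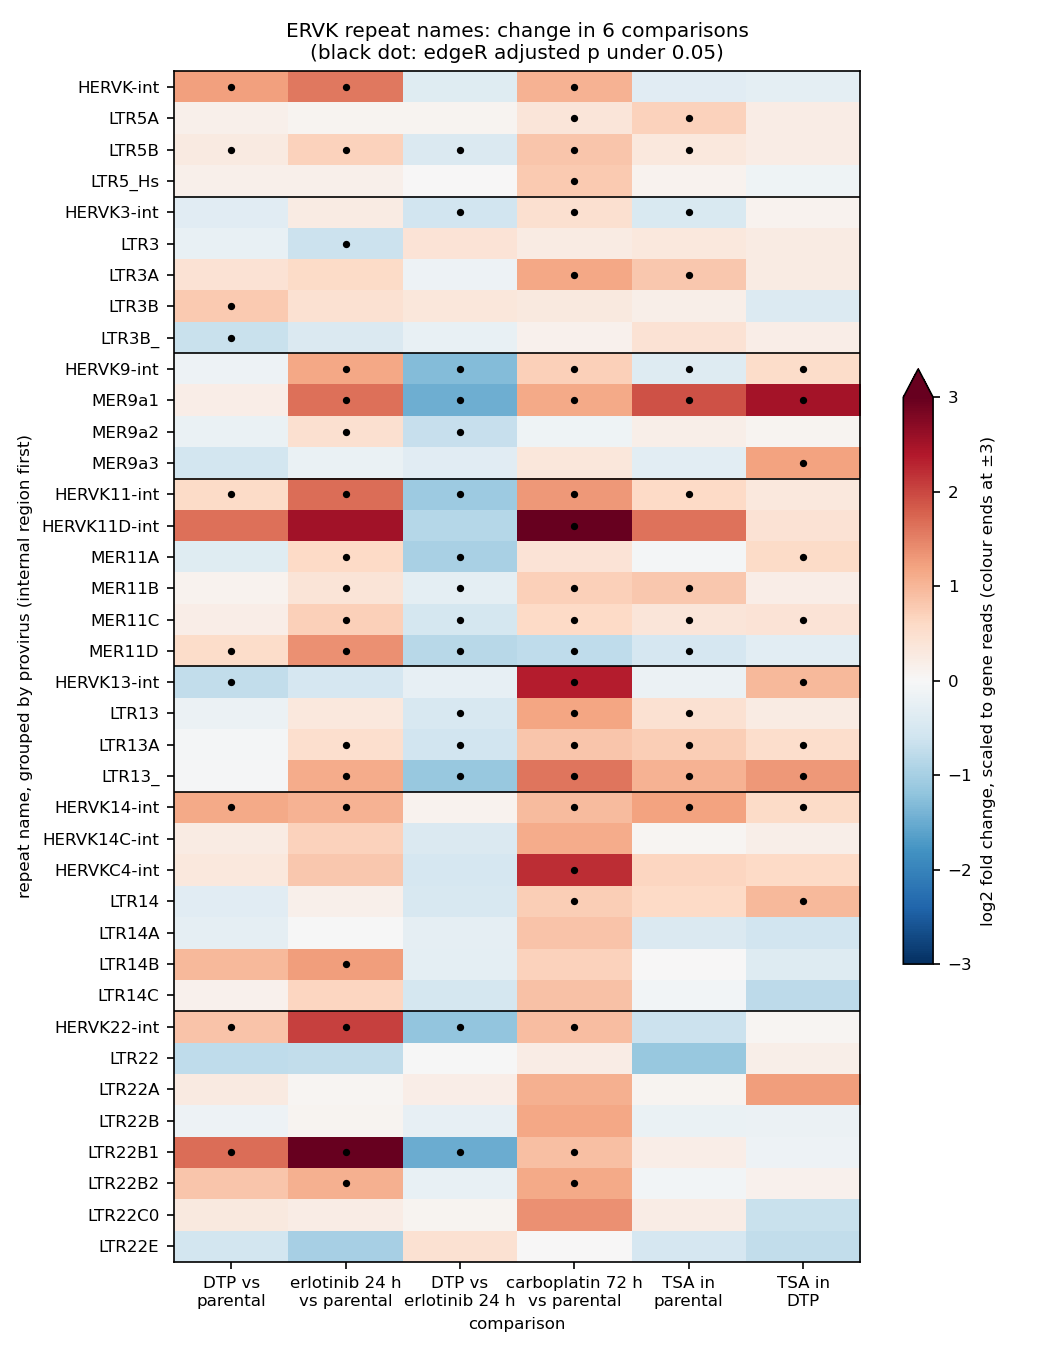
Log2 change, scaled to gene reads, of the 38 tested ERVK names (rows, grouped by set with internal regions first) in 6 comparisons (columns). Black dots mark an edgeR adjusted p under 0.05. The carboplatin column holds 22 higher names and MER11D lower, and in the column of DTP against 24 hours of erlotinib the 15 dots are lower; scaled to repeat reads HERVK3-int and LTR5A were at -0.06 and -0.18 after carboplatin, and scaled to spike-ins LTR5B and MER11B were at 0.02 and 0.16 in DTP against erlotinib_24h.

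HERVK-int, the internal region of HML2, was higher after each of the 3 drug treatments. It stood at 6.93, 7.69 and 6.99 CPM for parental_DMSO, 16.8, 17.0 and 17.2 for DTP, 21.4, 21.8 and 22.0 for erlotinib_24h and 15.0, 15.5 and 13.9 for carboplatin_72h. These groups did not overlap with parental_DMSO. The log2 changes were 1.24 ± 0.25 in DTP (adjusted p = 0.00264), 1.59 ± 0.25 in erlotinib_24h (1.34e-04) and 1.04 ± 0.25 in carboplatin_72h (0.00285). Scaled to repeat reads they were 1.22, 1.33 and 0.49, the last with an adjusted p of 0.165.

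HERVK-int was not called with TSA, and its replicates spread widely there. The level was 2.82, 6.07 and 8.07 CPM for parental_TSA and 18.2, 11.8 and 11.7 for DTP_TSA. In both groups replicate a lay apart from its mates, below them in parental_TSA and above them in DTP_TSA. The log2 change was -0.34 ± 0.25 in parental cells (adjusted p = 0.327) and -0.29 ± 0.25 in persisters (0.454). Without both TSA a libraries it was -0.02 (0.836) and -0.54 (5.98e-05), and the difference between these went from 0.05 (0.953) to -0.52 (0.00249).

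LTR5_Hs, the youngest LTR of HML2 and the ERVK name with the most reads, was higher after carboplatin. Its level was 23.5, 24.1 and 23.5 CPM for parental_DMSO, 26.9, 25.3 and 27.0 for DTP, 27.5, 26.0 and 25.0 for erlotinib_24h and 39.6, 42.5 and 40.6 for carboplatin_72h. Carboplatin libraries were well above the others, while DTP and erlotinib_24h overlapped with each other. Its log2 change was 0.79 ± 0.08 after carboplatin (adjusted p = 2.62e-06), 0.16 ± 0.08 in DTP (0.262) and 0.14 ± 0.08 in erlotinib_24h (0.212). Each DTP and erlotinib_24h library lay above parental_DMSO, and without both TSA a libraries these adjusted p-values were 0.00653 and 0.0093. Scaled to repeat reads, the carboplatin change was 0.23 (0.114). TSA values were 29.4, 23.6 and 23.6 CPM in parental cells and 22.7, 25.4 and 24.7 in persisters, overlapping with their controls.

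LTR5B and LTR5A, the older LTRs of the group, were both called higher after carboplatin and after TSA in parental cells on the gene scale, with LTR5A at -0.18 after carboplatin when scaled to repeat reads. LTR5B, which stood between 11.8 and 12.4 CPM in parental_DMSO, was higher by 0.26 ± 0.08 in DTP (adjusted p = 0.0281), 0.70 ± 0.08 in erlotinib_24h (3.53e-06), 0.82 ± 0.08 in carboplatin_72h (8.69e-07) and 0.32 ± 0.08 in parental_TSA (0.00458). The DTP call was lost, at adjusted p between 0.0586 and 0.107, without any 1 of the 6 DTP and parental_DMSO libraries. DTP lay below erlotinib_24h by -0.43 ± 0.08 (7.42e-04), but at 0.02 scaled to spike-ins. LTR5A was at 8.43, 7.64 and 7.94 CPM for parental_DMSO, 16.1, 12.8 and 10.2 for parental_TSA and 10.4, 10.7 and 10.1 for carboplatin_72h. It was higher by 0.70 ± 0.14 after TSA in parental cells (0.00176). After carboplatin it differed by 0.37 ± 0.14 (0.0438), a call lost without any 1 library other than DTP_TSA a, DTP_TSA b, parental_TSA a or parental_TSA c (adjusted p between 0.0518 and 0.147) and at -0.18 scaled to repeat reads.

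HERVK13-int, the internal region flanked by LTR13, had one of the largest changes after carboplatin. It stood at 7.81, 7.55 and 7.75 CPM for parental_DMSO, 4.90, 4.37 and 4.57 for DTP, 5.64, 5.40 and 5.24 for erlotinib_24h and 40.50, 37.99 and 39.07 for carboplatin_72h. Carboplatin libraries lay far above, and DTP and erlotinib_24h libraries below, those of parental_DMSO. After carboplatin the level was 5.09-fold that of parental_DMSO (log2 2.35 ± 0.24, adjusted p = 2.34e-06), and 1.80 scaled to repeat reads (9.45e-05). DTP differed by -0.74 ± 0.24 (0.0466), a call that was lost without any 1 library other than DTP_TSA a, DTP_TSA b, parental_TSA a or parental_TSA c (adjusted p between 0.0506 and 0.151) and stood at 1.04e-08 without both TSA a libraries. For erlotinib_24h the value was -0.51 ± 0.23 (0.12).

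HERVK13-int was higher with TSA in persisters and did not pass in parental cells, and the difference between these effects itself passed the test. DTP_TSA had 5.24, 11.4 and 10.4 CPM, above each DTP library, and parental_TSA 4.26, 7.64 and 8.50, on both sides of parental_DMSO. Replicate a was the lowest of both groups. The log2 change was 0.98 ± 0.24 in persisters (adjusted p = 0.0109) and -0.18 ± 0.23 in parental cells (0.605), and the difference 1.15 ± 0.33 (0.0213), or 0.86 (0.0962) scaled to repeat reads. The persister call was lost without DTP b or DTP c (0.93 to 0.96, adjusted p between 0.0507 and 0.0509), and the difference without any 1 of DTP b, DTP c and DTP_TSA b (0.94 to 1.14, 0.0505 to 0.0565). Without both TSA a libraries the values were 1.24 (2.15e-11) and 1.17 (1.90e-08).

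The LTRs of HERVK13 rose after carboplatin as well. LTR13, the second in reads among ERVK names, was at 19.3, 19.8 and 19.5 CPM for parental_DMSO and 43.7, 45.1 and 44.4 for carboplatin_72h, a log2 change of 1.18 ± 0.14 (adjusted p = 9.63e-06) with no overlap. After TSA in parental cells it was at 35.4, 23.0 and 22.6 CPM, a change of 0.47 ± 0.14 (0.0209) led by replicate a. Without parental_TSA a this was 0.22 and no longer called, as also without any 1 of the parental_DMSO libraries (adjusted p between 0.0541 and 0.138). LTR13A was higher by 0.74 ± 0.14 there (7.68e-04). LTR13_, a low-count variant at 0.341, 0.437 and 0.386 CPM for parental_DMSO, was at 1.25, 1.04 and 1.28 for carboplatin_72h (1.61 ± 0.30, 4.55e-04). It was also higher in DTP_TSA than in DTP (1.31 ± 0.30, 0.00904), and in erlotinib_24h (1.10 ± 0.30, 0.0105), where the call was lost without parental_DMSO a (1.01, 0.0505).

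The gene table holds 1 gene named for an ERVK provirus, ERVK13-1, a noncoding transcript of a HERVK13 copy. It stood at 7.17, 6.38 and 6.34 CPM for parental_DMSO, 6.70, 5.53 and 6.39 for DTP, 5.83, 6.36 and 6.26 for erlotinib_24h and 14.4, 15.7 and 14.2 for carboplatin_72h. Parental_TSA had 6.12, 8.25 and 9.46, and DTP_TSA 22.6, 19.6 and 19.6. Carboplatin and DTP_TSA libraries were therefore above those of the 4 other groups, and replicate a of DTP_TSA was the highest of its group. Its log2 change was 1.16 ± 0.13 after carboplatin (adjusted p over 17594 genes = 9.65e-07), 1.73 ± 0.13 for TSA in persisters (1e-08), 0.27 ± 0.13 for TSA in parental cells (0.0929), and the difference between both TSA effects 1.46 ± 0.19 (1.34e-05). In DTP it was -0.10 ± 0.13 (0.558). The tables do not say whether reads of this gene were also given to HERVK13-int.

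**Figure D3:**
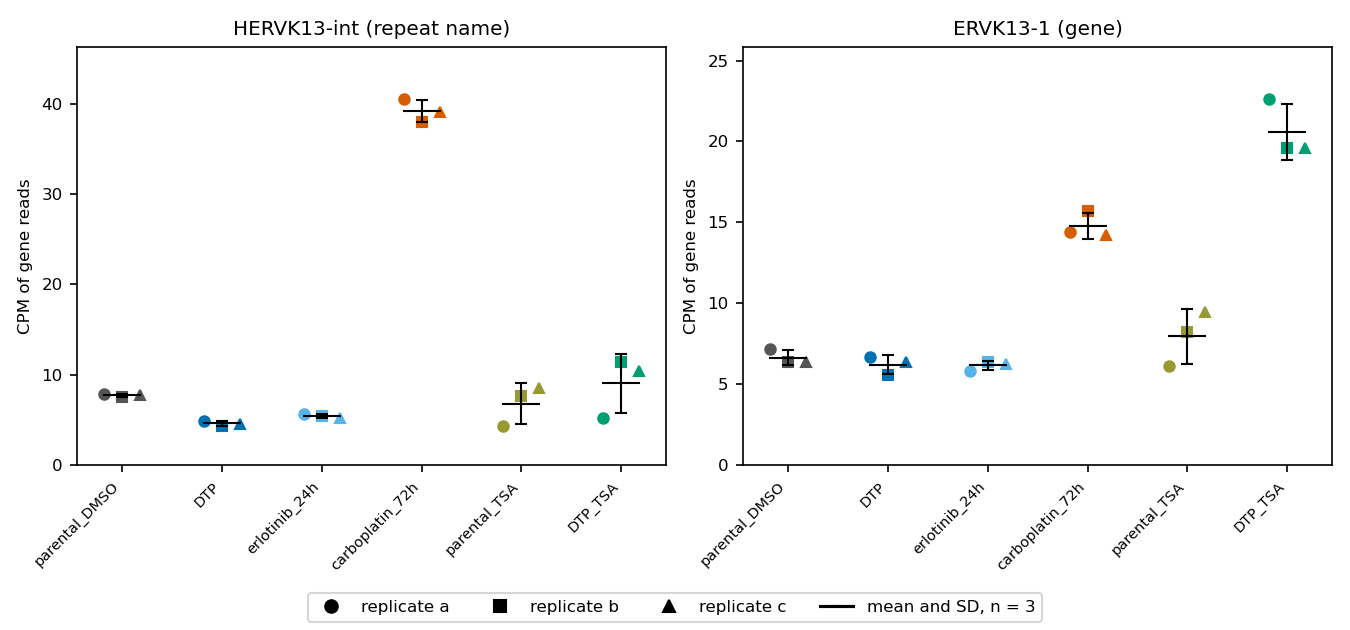
Level of the repeat name HERVK13-int (left) and of the gene ERVK13-1 (right) in each library, as CPM of gene reads; symbols are replicates and bars the mean and SD of 3. HERVK13-int was highest in carboplatin_72h, at 37.99 to 40.50 CPM, and ERVK13-1 in DTP_TSA, at 19.6 to 22.6.

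HERVK22-int and its LTR variant LTR22B1 were highest after 24 hours of erlotinib. HERVK22-int stood at 5.40, 5.54 and 5.80 CPM for parental_DMSO, 10.3, 9.93 and 10.1 for DTP, 23.8, 23.3 and 22.3 for erlotinib_24h and 11.1, 11.0 and 9.88 for carboplatin_72h. LTR22B1 stood at 1.09, 1.36 and 1.27 for parental_DMSO, 4.36, 4.02 and 3.57 for DTP, 11.9, 11.1 and 10.5 for erlotinib_24h and 2.16, 2.22 and 2.55 for carboplatin_72h. For both names the erlotinib_24h libraries were above those of DTP, which in turn lay above parental_DMSO.

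LTR22B1 changed by 8.98-fold at 24 hours of erlotinib (log2 3.17 ± 0.17, adjusted p = 6.82e-10), by 1.68 ± 0.16 in DTP (1.75e-06) and by 0.89 ± 0.16 after carboplatin (3.14e-04). DTP lay below erlotinib_24h by -1.49 ± 0.15 (6.76e-06). HERVK22-int changed by 2.05 ± 0.25 (8.33e-06), 0.86 ± 0.24 (0.0228) and 0.93 ± 0.24 (0.00473) in the same order, and DTP lay below erlotinib_24h by -1.20 ± 0.24 (0.00189). The DTP call of HERVK22-int was lost without any 1 of the 6 parental_DMSO and DTP libraries (adjusted p between 0.0611 and 0.0896). The carboplatin changes scaled to repeat reads were 0.35 (0.117) for LTR22B1 and 0.38 (0.268) for HERVK22-int, and were no longer called.

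After TSA, HERVK22-int was at 2.67, 3.86 and 4.12 CPM in parental cells, each below parental_DMSO, and at 17.0, 7.56 and 7.11 in persisters, where replicate a was above DTP and the others below it. The log2 change was -0.65 ± 0.24 in parental cells (adjusted p = 0.0569) and 0.05 ± 0.24 in persisters (0.917). Without both TSA a libraries both fell, by 0.48 (1.74e-05) and by 0.47 (2.82e-05) on the log2 scale. LTR22B1 overlapped with its controls in both TSA groups. LTR22B2, with between 0.273 and 0.524 CPM in parental_DMSO, was higher after carboplatin by 1.14 ± 0.38 (0.0213), a call lost without any 1 of parental_DMSO a, parental_DMSO b, carboplatin_72h b and carboplatin_72h c (0.91 to 1.11, adjusted p between 0.0623 and 0.109).

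HERVK11-int, pooled here with HERVK11D-int and the MER11 LTRs, was higher in 4 comparisons. Its level was 0.982, 0.980 and 0.979 CPM for parental_DMSO, 1.42, 1.62 and 1.37 for DTP, 2.96, 3.16 and 3.32 for erlotinib_24h, 2.36, 2.74 and 2.13 for carboplatin_72h and 1.16, 1.61 and 1.66 for parental_TSA. Each of these groups lay above parental_DMSO without overlap. Its log2 change was 1.68 ± 0.18 in erlotinib_24h (adjusted p = 2.14e-06), 1.30 ± 0.18 in carboplatin_72h (2.49e-05), 0.60 ± 0.18 in parental_TSA (0.0174) and 0.58 ± 0.18 in DTP (0.0369). The DTP call was lost without any 1 of the parental_DMSO, DTP and erlotinib_24h libraries or carboplatin_72h a (0.0518 to 0.156), and the TSA call without any 1 of the parental_DMSO libraries, parental_TSA b or parental_TSA c (0.0523 to 0.0659).

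The MER11 LTRs did not follow a single pattern. MER11D was at 10.1, 10.7 and 9.36 CPM for parental_DMSO, 14.8, 15.3 and 13.9 for DTP, 26.0, 26.0 and 26.5 for erlotinib_24h and 6.09, 6.25 and 5.42 for carboplatin_72h. It was thus highest after 24 hours of erlotinib and lowest after carboplatin, without overlap between these 4 groups. It was the ERVK name that fell after carboplatin, by 0.77 ± 0.12 on the log2 scale (adjusted p = 1.10e-04), or by 1.32 scaled to repeat reads (5.82e-07). Scaled to spike-ins the value was -0.11 (0.619) and no longer called. It rose by 1.38 ± 0.12 in erlotinib_24h (3.79e-07) and 0.54 ± 0.12 in DTP (0.00567), and DTP lay below erlotinib_24h by -0.84 ± 0.12 (1.24e-04). After TSA in parental cells, with 5.94, 7.89 and 7.34 CPM, it fell by 0.51 ± 0.12 (0.00458), a call lost on the spike-in scale.

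MER11B rose after TSA in parental cells, where MER11D fell. It had 7.64, 8.99 and 8.57 CPM for parental_DMSO and 16.2, 14.1 and 13.8 for parental_TSA, a log2 change of 0.81 ± 0.10 (adjusted p = 2.90e-05) without overlap. In persisters it had 9.77, 8.95 and 8.18 without and 9.15, 10.7 and 11.0 with TSA (0.20 ± 0.10, 0.182). The difference between both TSA effects was -0.61 ± 0.14 (0.00761), a call lost on the spike-in scale. After carboplatin it was higher by 0.72 ± 0.10 (3.39e-05). MER11A was higher in erlotinib_24h by 0.61 ± 0.16 (0.00872) and lower in DTP than in erlotinib_24h by -0.98 ± 0.16 (4.19e-04). In DTP_TSA, with 12.5, 7.31 and 7.08 CPM, MER11A differed from DTP by 0.57 ± 0.16 (0.0266), and this call was lost without any 1 of the DTP libraries (adjusted p up to 0.0973) and without DTP_TSA a (0.25).

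HERVK11D-int was a low-count name, with 3 reads over the parental_DMSO libraries. It had 7, 13 and 15 reads in the carboplatin_72h libraries, 11, 5 and 5 in those of erlotinib_24h and 3, 2 and 6 in those of DTP. In parental_TSA the reads were 0, 1 and 14, so that replicate c held nearly all of them. Per gene read, the ratio to parental_DMSO was 11.3 (exact 95% interval 3.58 to 57.7, counting error only) after carboplatin, 6.22 (1.86 to 32.6) in erlotinib_24h and 3.36 (0.888 to 18.8) in DTP. The edgeR test called it after carboplatin (adjusted p = 0.0151), not without parental_DMSO a or parental_DMSO c (0.0543 to 0.0659).

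HERVK9-int, the internal region flanked by MER9a, was highest after 24 hours of erlotinib. It was at 9.58, 9.88 and 8.02 CPM for parental_DMSO, 8.48, 8.15 and 8.25 for DTP, 20.64, 20.33 and 19.99 for erlotinib_24h and 14.6, 16.0 and 14.4 for carboplatin_72h. DTP overlapped with parental_DMSO, and the other drug groups lay above both. The log2 change was 1.15 ± 0.14 in erlotinib_24h (adjusted p = 1.06e-05) and 0.71 ± 0.14 in carboplatin_72h (6.92e-04), the latter 0.16 scaled to repeat reads (0.435). DTP lay below erlotinib_24h by -1.29 ± 0.14 (1.06e-05).

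Under TSA, HERVK9-int had 5.30, 6.76 and 8.75 CPM in parental cells and 13.9, 11.0 and 11.7 in persisters. The level was below parental_DMSO in 2 of 3 libraries and above each DTP library. It differed by -0.40 ± 0.14 in parental cells (adjusted p = 0.0425), a call lost without any 1 of parental_DMSO a and b, the DTP and erlotinib_24h libraries, carboplatin_72h a and c, DTP_TSA c, and parental_TSA a and b (0.0508 to 0.167). The call was also lost on the spike-in scale. The value was -0.25 without parental_TSA a and -0.60 without parental_TSA c. In persisters it was higher by 0.55 ± 0.14 (0.0148), lost without DTP b or DTP c (0.0581 and 0.0592). The difference between both TSA effects was 0.95 ± 0.20 (0.00373), and 0.68 (5.20e-04) without both TSA a libraries.

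MER9a1, an LTR variant with few reads, had the largest TSA change among the ERVK names in each cell state. It was at 0.627, 0.344 and 0.303 CPM for parental_DMSO and 2.23, 1.46 and 1.15 for parental_TSA, and at 0.428, 0.356 and 0.672 for DTP and 2.72, 2.94 and 2.50 for DTP_TSA. TSA libraries were above their controls in both cell states. Its log2 change was 1.91 ± 0.32 in parental cells (adjusted p = 3.54e-04) and 2.49 ± 0.31 in persisters (5.42e-05), and the difference between these was 0.58 ± 0.44 (0.378). It was also higher in erlotinib_24h (1.65 ± 0.32, 7.43e-04) and carboplatin_72h (1.14 ± 0.32, 0.00765). MER9a3 was at 1.32, 1.58 and 1.61 CPM for DTP and 5.66, 2.40 and 2.54 for DTP_TSA, higher by 1.21 ± 0.26 (0.00586) and by 0.71 (5.96e-04) without both TSA a libraries. It did not pass in parental cells (-0.32 ± 0.26, 0.377), and the difference between both TSA effects was 1.53 ± 0.37 (0.00895).

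HERVK14-int, pooled here with HERVK14C-int, HERVKC4-int and the LTR14 names, was higher in each treated group. Its level was 2.67, 2.87 and 2.87 CPM for parental_DMSO, 6.43, 6.25 and 5.84 for DTP, 6.31, 5.47 and 5.53 for erlotinib_24h, 5.29, 5.94 and 5.13 for carboplatin_72h, 7.48, 6.26 and 5.87 for parental_TSA and 8.09, 9.90 and 9.38 for DTP_TSA. Each treated library lay above those of parental_DMSO, and DTP and erlotinib_24h overlapped. The log2 change from parental_DMSO was 1.14 ± 0.11 in DTP (adjusted p = 2.19e-06), 1.04 ± 0.11 in erlotinib_24h (2.40e-06), 0.96 ± 0.11 in carboplatin_72h (6.46e-06) and 1.22 ± 0.11 in parental_TSA (1.66e-06). TSA added 0.57 ± 0.11 in persisters (0.00238). This was less than in parental cells, with a difference of -0.65 ± 0.15 (0.00786), a call lost on the spike-in scale. The first 4 remained called when scaled to repeat reads, at 1.12, 0.78, 0.41 and 1.32.

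Other names of that pooled set had fewer reads. HERVKC4-int, named for a copy in the complement C4 genes, was at 0.136, 0.066 and 0.138 CPM for parental_DMSO and 0.552, 0.588 and 0.462 for carboplatin_72h, higher by 2.22 ± 0.66 (adjusted p = 0.0108), a call lost without parental_DMSO b (1.95, 0.0547). HERVK14C-int passed in none of the comparisons; after carboplatin it was at 1.11 ± 0.59 (0.134), and 0.0125 without both TSA a libraries. LTR14B was higher in erlotinib_24h by 1.25 ± 0.38 (0.0209), lost without any 1 of parental_DMSO a, parental_DMSO c and erlotinib_24h a (1.07 to 1.30, 0.0539 to 0.101). LTR14 was higher in DTP_TSA than in DTP by 0.97 ± 0.27 (0.024), lost without DTP a or DTP c (0.81 to 0.95, 0.087 to 0.114).

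HERVK3-int, the internal region flanked by LTR3 with the most reads among internal regions, was called higher after carboplatin and lower after TSA in parental cells, the first on the gene scale and not when scaled to repeat reads. It was at 21.5, 23.6 and 22.9 CPM for parental_DMSO, 18.3, 18.4 and 17.4 for DTP, 26.8, 27.1 and 26.2 for erlotinib_24h and 32.7, 32.5 and 30.3 for carboplatin_72h. These 4 groups did not overlap. After carboplatin the log2 change was 0.49 ± 0.13 (adjusted p = 0.00445), but at -0.06 scaled to repeat reads, and DTP lay below erlotinib_24h by -0.57 ± 0.13 (0.00375). The DTP difference was -0.33 ± 0.13 (0.101), or 4.64e-05 without both TSA a libraries. With TSA in parental cells it had 12.7, 16.9 and 19.5 CPM, lower by 0.47 ± 0.13 on the log2 scale (0.0101), a call lost on the spike-in scale. In persisters the value was 0.10 ± 0.13 (0.623), and the difference between both 0.57 ± 0.18 (0.0311). That call was lost without any 1 of the DTP libraries, parental_DMSO b, parental_DMSO c, DTP_TSA b and DTP_TSA c (0.0581 to 0.0787).

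The LTR3 variants went in different directions. LTR3 was at 6.98, 8.20 and 6.52 CPM for parental_DMSO and 5.11, 4.61 and 4.24 for erlotinib_24h, lower by -0.64 ± 0.17 (adjusted p = 0.0097), lost without parental_DMSO b (-0.54, 0.0504). LTR3A was higher after carboplatin by 1.16 ± 0.27 (0.00202) and after TSA in parental cells by 0.81 ± 0.26 (0.0287), the latter lost without any 1 of replicates a and b of parental_DMSO and parental_TSA (0.70 to 0.83, 0.0675 to 0.111). In DTP, LTR3B was at 0.79 ± 0.25 (0.0423), lost without any 1 of the parental_DMSO, DTP and erlotinib_24h libraries or carboplatin_72h b or c (0.0504 to 0.159). LTR3B_ was at -0.66 ± 0.20 (0.0329), lost without any 1 of parental_DMSO a, parental_DMSO b, DTP b and DTP c (0.0748 to 0.165).

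**Figure D4:**
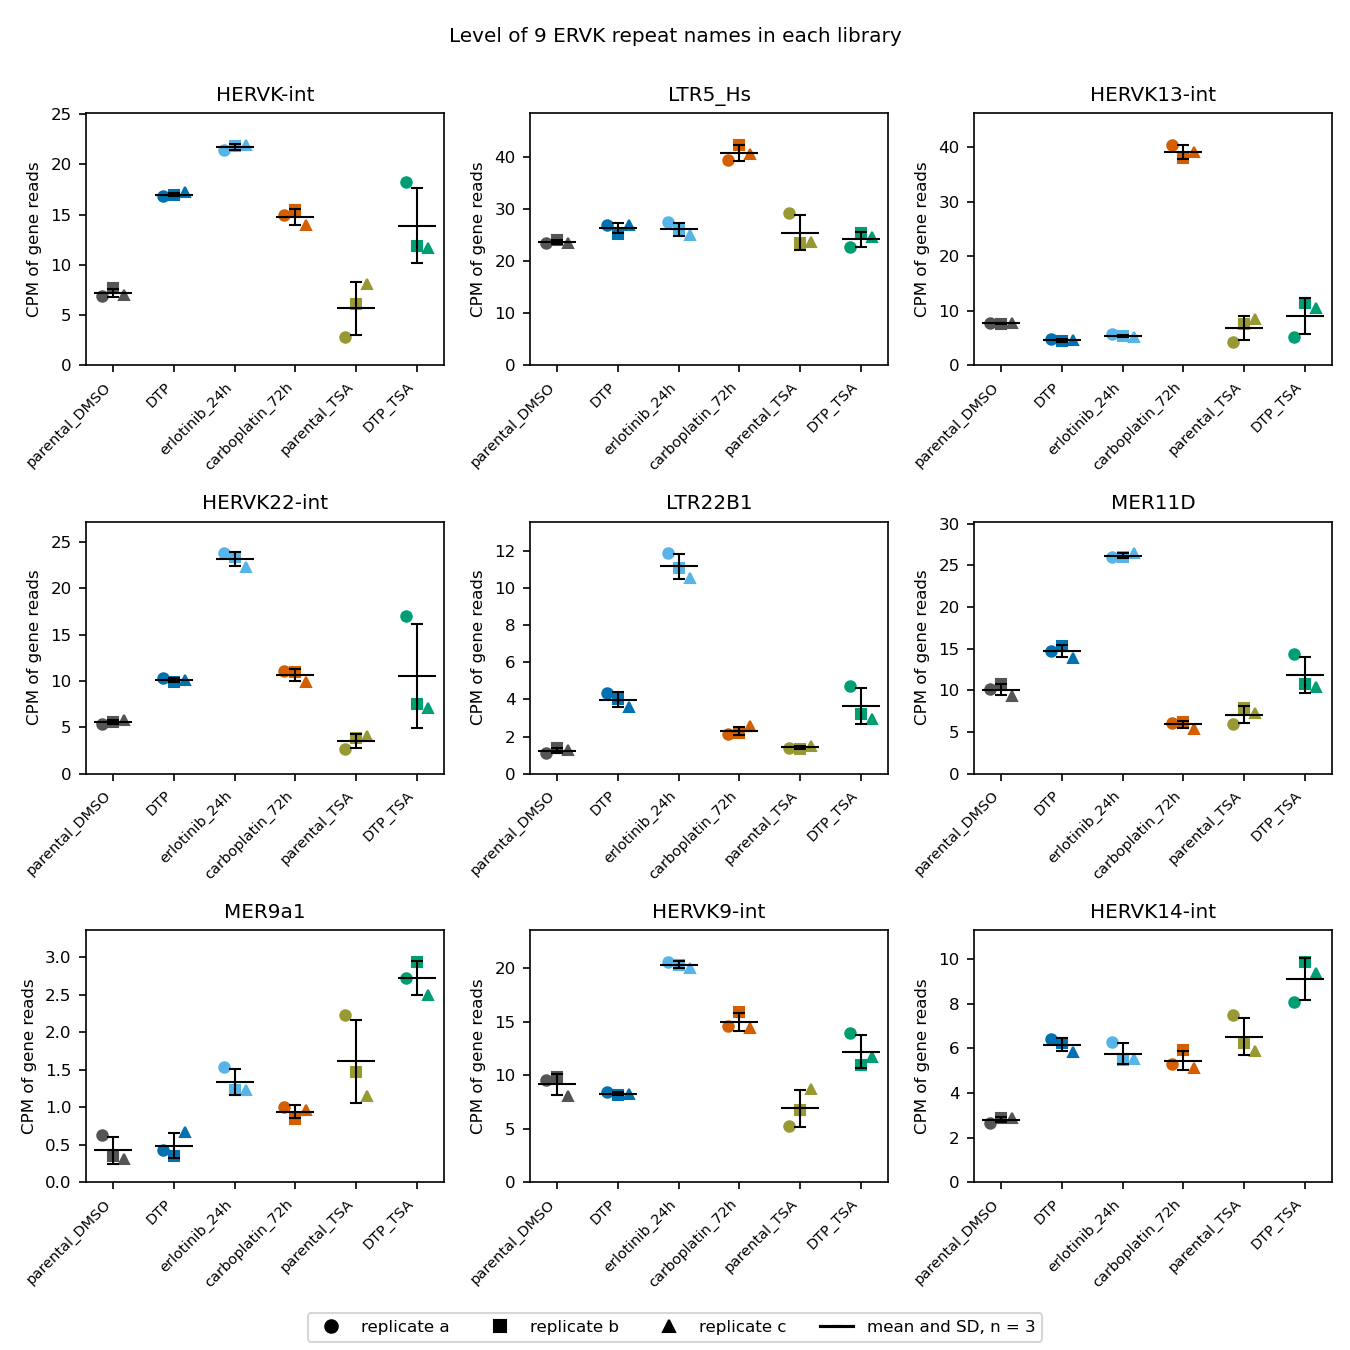
Level of 9 ERVK names in each library as CPM of gene reads; symbols are replicates and bars the mean and SD of 3. HERVK22-int, LTR22B1 and MER11D were highest in erlotinib_24h, HERVK13-int and LTR5_Hs in carboplatin_72h and MER9a1 and HERVK14-int in DTP_TSA, and replicate a of the TSA groups lay apart for HERVK-int and HERVK22-int.

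The number of ERVK names called depended on the scale. When counts were scaled to repeat reads, 8 of 38 were higher and 2 lower in DTP (7.39% and 7.03% of 1109 names), 10 and 3 in erlotinib_24h (13.0% and 15.9%) and 6 and 2 in carboplatin_72h (5.77% and 10.4%). With TSA it was 11 and 2 in parental cells (13.0% and 14.5%) and 4 and 2 in persisters (4.51% and 9.11%), and DTP was higher than erlotinib_24h in 1 and lower in 7 (9.20% and 7.48%). The median over ERVK names was then 0.14 for DTP, 0.28 for erlotinib_24h, 0.29 for carboplatin_72h and 0.28 for parental_TSA, each above a median of all names between -0.05 and -0.01. For TSA in persisters it was -0.01.

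On that scale no call was lost in DTP. After 24 hours of erlotinib the calls of LTR13_, LTR13A, LTR14B, LTR22B2, MER11A, MER11B and MER9a2 were lost and HERVK13-int and LTR3B_ became lower. After carboplatin HERVK11-int, HERVK13-int, HERVK14-int, LTR13, LTR13_ and LTR5B kept their calls, as did MER11D in the other direction, where MER9a2 joined it. HERVK9-int was lost for TSA in parental cells, and HERVK14-int, HERVK9-int, LTR13A, LTR14, MER11A and MER11C for TSA in persisters. HERVK3-int, LTR13, LTR13_, LTR13A, LTR5B, MER11B, MER11C and MER9a2 were no longer called lower in DTP than in erlotinib_24h, and LTR3 was higher. LTR5_Hs and MER11D were lower with TSA in persisters on that scale.

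Scaled to spike-in RNA, which was added by cell number, and without DTP_TSA a, 37 of 40 ERVK names were higher and 0 lower after carboplatin (84.7% and 0.789% of 1140 names). The median of all names was then 1.20 and that of ERVK names 1.48. In DTP it was 6 higher and 0 lower (8.16% and 3.07%), and 10 and 4 in erlotinib_24h (11.1% and 14.0%). With TSA it was 8 and 0 in parental cells (10.7% and 12.4%) and 6 and 0 in persisters (4.91% and 0.614%). DTP against erlotinib_24h turned, with 7 higher and 5 lower (10.7% and 3.33%) and a median of 0.06 where all names had 0.27.

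**Figure D5:**
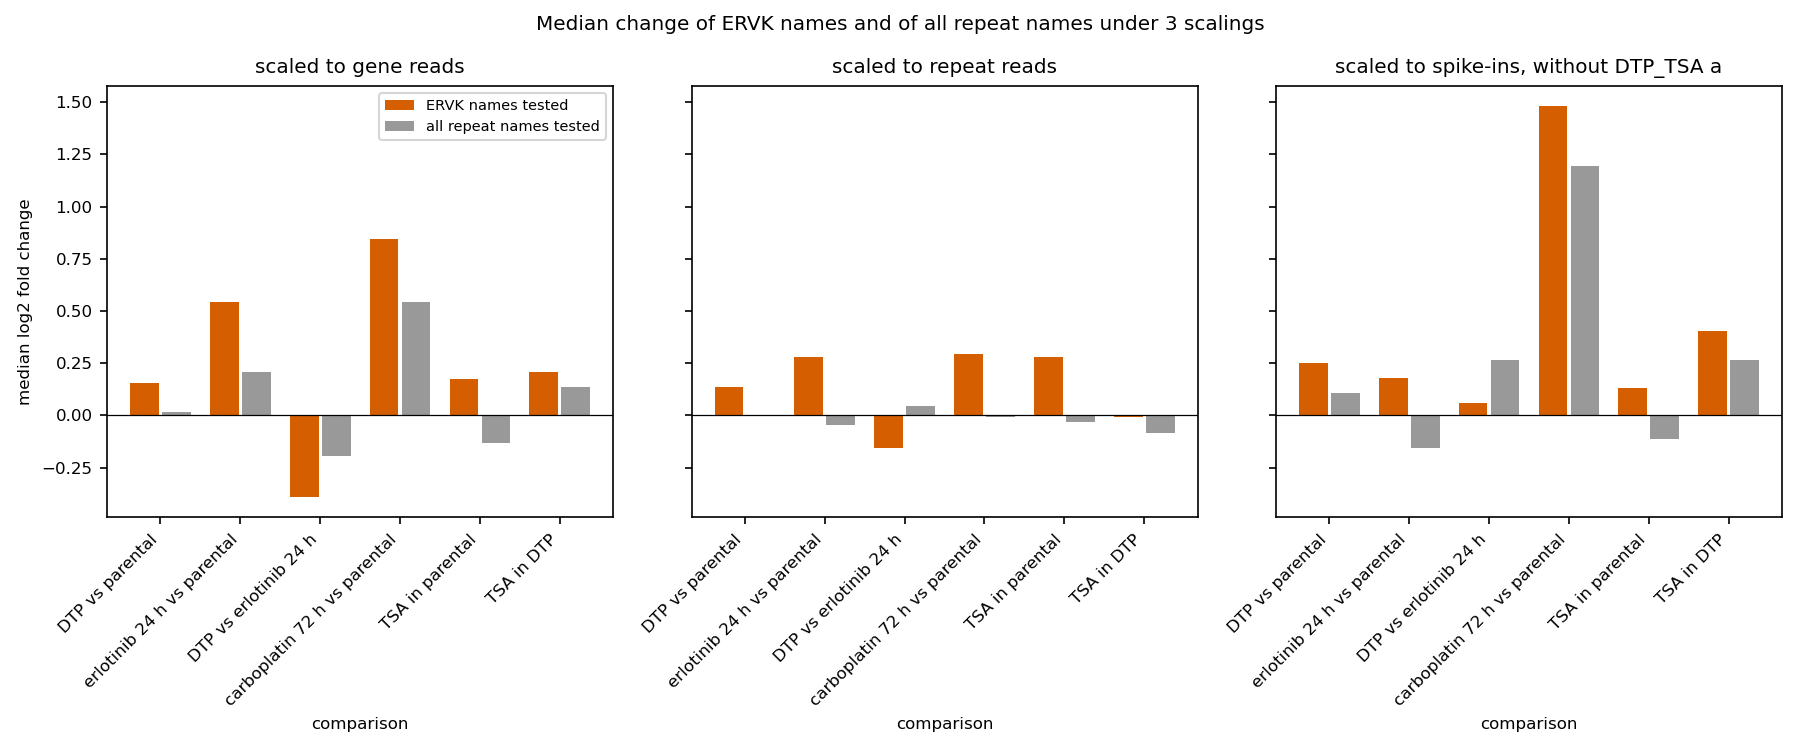
Median log2 change of the ERVK names (orange) and of all repeat names tested (grey) in 6 comparisons, scaled to gene reads, repeat reads or spike-ins. The ERVK median is above that of all names in each comparison except DTP against 24 hours of erlotinib, where it is -0.39 on the gene scale, -0.15 on the repeat scale and 0.06 on the spike-in scale.

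The difference between both TSA effects passed for 4 ERVK names higher in persisters (HERVK13-int, HERVK3-int, HERVK9-int and MER9a3) and 2 lower (HERVK14-int and MER11B), where 16.8% of all names were higher and 4.90% lower. The median was -0.09 over ERVK names and 0.27 over all names. Without both TSA a libraries it was 6 higher and 5 lower, with 23.2% and 7.91% of all names. Without DTP b or DTP c, 2 were higher, where 117 and 118 of all names were higher, against 185 with all libraries. Scaled to repeat reads it was 2 higher and 6 lower (5.32% and 9.83%), and scaled to spike-ins 2 higher and 0 lower (3.33% and 1.49%).

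Of 25 genes that silence such proviruses, more fell than rose in each treatment on the gene scale. In DTP 3 rose and 14 fell (31.1% and 27.9% of all genes), in erlotinib_24h 5 and 14 (36.6% and 32.8%), in carboplatin_72h 4 and 14 (30.3% and 28.7%), in parental_TSA 6 and 16 (30.9% and 27.5%) and in DTP_TSA against DTP 5 and 15 (25.6% and 30.7%). The median log2 change ran from -0.24 to -0.48, where that of all genes ran from -0.08 to 0.11. Without both TSA a libraries it was 7 and 16 in DTP (38.8% and 34.9% of all genes), 7 and 16 in erlotinib_24h (43.1% and 37.5%), 8 and 14 in carboplatin_72h (38.8% and 35.2%), 7 and 17 in parental_TSA (36.5% and 33.0%) and 6 and 18 in DTP_TSA against DTP (32.8% and 37.5%). After carboplatin the count turned on the spike-in scale, with 14 higher and 1 lower (59.1% and 6.65% of all genes) and a median of 0.36 where all genes had 0.73. DTP against erlotinib_24h gave 10 higher and 6 lower (30.6% and 24.9%), and 14 and 6 without both TSA a libraries (38.2% and 33.5%). On the spike-in scale that comparison gave 16 higher and 0 lower (46.6% and 10.9%), with a median of 0.625 where all genes had 0.484. Erlotinib_24h against parental_DMSO gave 0 higher and 16 lower on that scale (25.2% and 39.5%).

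SETDB1, the H3K9 methyltransferase of the TRIM28 pathway, was at 33.6, 34.1 and 32.8 CPM for parental_DMSO, 33.6, 33.3 and 32.3 for DTP, 44.9, 46.2 and 43.9 for erlotinib_24h and 25.1, 25.7 and 25.4 for carboplatin_72h. With TSA it was at 16.1, 17.4 and 17.7 in parental cells and 8.65, 12.6 and 13.0 in persisters. TSA libraries were the lowest in both cell states, and DTP overlapped with parental_DMSO. The log2 change was 0.43 ± 0.10 in erlotinib_24h (adjusted p = 0.00128, but 0.06 and 0.772 on the spike-in scale), -0.40 ± 0.10 after carboplatin (0.00285, but 0.25 on the spike-in scale), -0.97 ± 0.10 with TSA in parental cells (4.44e-07) and -1.53 ± 0.11 in persisters (2.74e-09). The TSA effects differed by -0.55 ± 0.15 (0.00644), a call lost on the spike-in scale (-0.28, 0.529). In DTP it was -0.02 ± 0.10 (0.894), and against erlotinib_24h -0.44 ± 0.10 (0.00128, but 0.01 on the spike-in scale).

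TRIM28, which recruits SETDB1 to proviruses, was lower than its control by -0.42 ± 0.08 in DTP (adjusted p = 4.27e-04), -0.68 ± 0.09 in erlotinib_24h (1.56e-06), -0.22 ± 0.08 after carboplatin (0.0323, but 0.41 on the spike-in scale), -0.46 ± 0.08 with TSA in parental cells (1.66e-04) and -0.36 ± 0.08 in persisters (0.00159, but -0.17 and 0.356 on the spike-in scale). UHRF1, which guides maintenance DNA methylation, was among the silencing genes that fell in each of these, by 1.09 ± 0.11 in DTP (1.44e-07), 2.96 ± 0.12 in erlotinib_24h (3.93e-13), 1.11 ± 0.11 after carboplatin (1.38e-07), 1.20 ± 0.11 with TSA in parental cells (5.86e-08) and 1.93 ± 0.11 in persisters (3.49e-10). The de novo DNA methyltransferase gene DNMT3A rose by 0.63 ± 0.09 in DTP (5.94e-06), 0.69 ± 0.09 in erlotinib_24h (1.41e-06, but 0.33 and 0.127 on the spike-in scale) and 0.41 ± 0.09 after carboplatin (4.86e-04). DNMT3A fell by 0.62 ± 0.09 with TSA in parental cells (9.74e-06) and by 1.34 ± 0.09 in persisters (1.30e-09). DNMT3B, the other de novo methyltransferase gene of the list, went the other way with TSA. Its mean level was 8.15 CPM in parental_DMSO and 19.2 in parental_TSA, and 10.9 in DTP and 20.7 in DTP_TSA.

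Of SP1, SP3 and MITF, transcription factors known to act on the HML2 LTR, SP1 was lower in DTP (-0.51 ± 0.10, adjusted p = 2.23e-04), after carboplatin (-0.76 ± 0.10, 3.41e-06), both lost on the spike-in scale (-0.42, 0.117, and -0.11, 0.651), and with TSA in parental cells (-0.75 ± 0.10, 4.38e-06) and persisters (-1.11 ± 0.10, 5.60e-08). It was higher in erlotinib_24h by 0.32 ± 0.10 (0.00684), but at -0.04 on the spike-in scale. SP3 was lower in DTP (-0.25 ± 0.09, 0.0192, or an adjusted p of 0.56 on the spike-in scale), with TSA in parental cells (-0.85 ± 0.09, 3.36e-07) and in persisters (-0.49 ± 0.09, 1.35e-04, or an adjusted p of 0.386 on the spike-in scale), and after carboplatin (-0.44 ± 0.09, 3.63e-04, but a log2 change of 0.22 on the spike-in scale). MITF was higher in DTP by 0.88 ± 0.10 (4.49e-07) and lower in erlotinib_24h by -0.33 ± 0.10 (0.00524).

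The 10 names that share the letters of MER11 without being ERVK all passed the filter. Of these, 1 was higher in DTP (7.72% of all names), 2 in erlotinib_24h (24.2%) and 5 in carboplatin_72h (45.3%), and 4 were lower in parental_TSA (18.3%). MER119, a DNA transposon, was at 3.41, 3.54 and 3.18 CPM for parental_DMSO and 9.82, 9.77 and 9.95 for erlotinib_24h (1.54 ± 0.12, adjusted p = 8.11e-08). MER110A, an ERV1 LTR, was higher in DTP (1.42 ± 0.37, 0.0146), erlotinib_24h (1.45 ± 0.37, 0.00624) and carboplatin_72h (1.45 ± 0.37, 0.00424). These 2 were named after their values were seen.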

How the data were processed

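RNA was sequenced from 18 PC9 libraries. Per the submitters' processing notes, Salmon was used; version, genome build and annotations: not given in the sources used here. The deposited tables hold expected counts, which the authors did not scale between libraries, per gene, repeat name, repeat family and ERCC spike-in; 3 columns per table match no sample and were not used. Counts were rounded. Quasi-likelihood models of edgeR 4.0.16, with limma 3.58.1 under R 4.3.3, were fitted over all libraries with a term per group and 12 residual degrees of freedom, on 1101 repeat names and 17594 genes that passed its expression filter. Library sizes were gene reads times TMM factors of genes. P-values were adjusted by Benjamini-Hochberg within each of 7 contrasts, with a threshold of 0.05. For the repeat scale, library sizes were the summed repeat reads times TMM factors over repeat names. Alternatives were DESeq2 1.42.0, its size factors, other filters, spike-in scaling, the replicate block, the groups alone and libraries left out. The members, lists and tests were chosen with earlier results of these data known. Internal regions and LTR5 names were named always, with up to 5 other members per direction and contrast by change (adjusted p under 0.05, at least 0.5 CPM, no overlap) and the 5 with most reads; genes were named by smallest p, up to 4 per direction. Whether all 50 names or 40 are counted was set after seeing the names. Simulated data with known changes served to check the fit. Figures used matplotlib 3.10.9 in Python 3.11.15.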

Additional observations from a re-analysis of the deposited data

Results flagged for a closer look

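The change that TSA made in persisters differed from that in parental cells, by the edgeR test of that difference, for 6 ERVK names and 2 genes. Of 38 ERVK names tested, 4 were higher and 2 lower, where 16.8% of all names were higher and 4.90% lower. The median difference was -0.09 over ERVK names and 0.27 over all names. Of all genes, 15.4% were higher and 23.1% lower. The log2 difference was 1.15 for HERVK13-int, 0.57 for HERVK3-int, 0.95 for HERVK9-int and 1.53 for MER9a3, whose TSA change was more positive in persisters. It was -0.65 for HERVK14-int and -0.61 for MER11B, whose TSA change was less positive in persisters. On the spike-in scale 2 ERVK names were higher and 0 lower (3.33% and 1.49% of all names), so these lower calls were lost. For the gene ERVK13-1 the log2 difference was 1.46 and for SETDB1 -0.55, the latter also lost on that scale. Replicate a stood apart from its mates for HERVK13-int in both TSA groups and for MER9a3 in DTP_TSA; without both libraries the differences were 1.17 and 1.09.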

How the results depend on the processing

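Scaling to repeat reads gave 10 ERVK names higher and 3 lower in erlotinib_24h, 6 and 2 in carboplatin_72h, 4 and 2 for TSA in persisters, 1 and 7 in DTP against erlotinib_24h and 2 and 6 for the difference between TSA effects, and turned HERVK3-int and LTR5A after carboplatin to -0.062 and -0.179. Scaling to spike-ins gave 0 lower in DTP, 10 higher and 4 lower in erlotinib_24h, 37 and 0 in carboplatin_72h, 0 lower in parental_TSA, 6 higher for TSA in persisters, 7 and 5 in DTP against erlotinib_24h and 2 and 0 for the TSA difference. It turned LTR5B in DTP against erlotinib_24h to 0.019, SETDB1 after carboplatin to 0.25 and in DTP against erlotinib_24h to 0.011, and TRIM28 after carboplatin to 0.41. With no filter, which tests more names, DTP had 5 higher and 1 lower (4.26% and 2.67% of all names). With the groups compared alone, which leaves fewer libraries, it was 7 lower in DTP (18.3% of all names), 4 lower in erlotinib_24h (16.9%), 7 higher in parental_TSA (7.99%), 4 higher for TSA in persisters (7.31%), 2 higher in DTP against erlotinib_24h (10.5%) and 1 higher for the TSA difference (6.19%). With all 50 names, 7 were lower in parental_TSA, where 18.3% of all names were lower. Without both TSA a libraries, which brought the biological coefficient of variation of repeat names from 0.229 to 0.103, it was 13 higher and 7 lower in DTP, 4 lower in erlotinib_24h, 7 lower in parental_TSA, 16 and 5 for TSA in persisters, 2 higher in DTP against erlotinib_24h and 5 lower for the TSA difference. HERVK22-int in DTP_TSA turned to -0.471 without DTP_TSA a, alone or with parental_TSA a (single libraries left out gave -0.471 to 0.263), and the TSA difference of HERVK-int to -0.52. The cause was otherwise not tested.

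Leaving out each library in turn gave 4 to 10 higher and 0 to 5 lower in DTP, 13 to 19 and 0 to 3 in erlotinib_24h, 18 to 31 and 1 in carboplatin_72h, 6 to 12 and 2 to 5 in parental_TSA, 4 to 12 and 0 to 3 for TSA in persisters, 0 to 1 and 12 to 15 in DTP against erlotinib_24h, and 2 to 5 and 2 to 3 for the TSA difference. Over all names, of which 1114 to 1129 were tested, calls moved too. In DTP, 60 to 145 were higher and 37 to 125 lower, and in erlotinib_24h 194 to 364 and 57 to 115. It was 387 to 684 and 16 to 31 in carboplatin_72h, and 77 to 194 and 153 to 316 in parental_TSA. For TSA in persisters it was 48 to 199 and 22 to 74, and 28 to 71 and 124 to 290 in DTP against erlotinib_24h. For the TSA difference it was 114 to 239 and 37 to 75. Of 76 calls of named members, 52 held in each of these fits. Replicate letters did not pair the samples, with a mean same-letter correlation of 0.0133 over 45 pairs (-0.277 to 0.401) and 8 of 18 libraries closest to their own letter. With the replicate block, the calls lost were HERVK11-int in DTP (0.58), LTR3B in DTP (0.79), LTR5A after carboplatin (0.38), HERVK9-int in parental_TSA (-0.40), LTR22B2 in erlotinib_24h and MER11B in DTP against erlotinib_24h, and LTR22A and MER11A were gained after carboplatin. Low reads limited HERVK11D-int, LTR22C and LTR22C2.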
